A study of Capra hircus with 6 samples.

Results

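The genes described here are 52 chromatin modifier and remodeller genes of the dairy goat (*Capra hircus*): enzymes that place or remove marks on histones and DNA, ATP-driven remodellers, 1 reader of acetylated histones, and the factors that hold chromatin loops. The regions described are those of the authors' table of differences in accessible chromatin between lactation and the dry period, chosen by position alone with no limit on p beyond the table's own: every region whose centre lay inside one of the 52 genes or within 50000 bp of one of its ends. All 52 symbols matched a gene of the goat RefSeq table, and 291 of the 30714 listed regions were found at 49 of them.

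The measurement was ATAC-seq, which reads out open chromatin through the insertions that a transposase makes into DNA free of nucleosomes. The libraries were made from mammary epithelial cells of the mammary gland, 3 from the lactation period and 3 from the dry period, when no milk is made. The labels used here give no breed, age or number of goats, nor whether replicate libraries stem from different animals. How the authors' p-values were computed is not given either, so it is unknown which variation they cover. At most it is the variation among these libraries, which could be technical. The values are those of a table of differential regions, with 1 fold change, p and false discovery rate (FDR) per region and no value per library; sequencing depth is unknown for every library and no spread between libraries can be shown. Region names fall into 2 sets, set 1 with 22884 regions and set 2 with 7830. All fold changes in both sets are above 1, and each set was read as the regions more accessible in 1 period. Which set belongs to lactation and which to the dry period is stated neither in the table nor in the labels, so directions are given by set. The name of the authors' comparison puts the dry period libraries first but ties neither set to a period.

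Chromatin regulators act as writers, erasers and readers. Acetyltransferases loosen the hold of histones on DNA and deacetylases restore it, methyltransferases of the Polycomb and KMT2 type mark silent and active genes, and demethylases take those marks away. SWI/SNF and CHD remodellers slide or evict nucleosomes, while CTCF and cohesin shape loops between promoters and enhancers. In mouse mammary gland, EZH2 is known to hold back the early differentiation of alveolar cells. Accessibility at such a gene is a property of its own locus and says nothing about the activity of its protein elsewhere.

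Regions at chromatin genes belonged mainly to set 1: 232 of 291, or 79.7% (exact 95% binomial interval 74.6% to 84.2%, counting error only), against 76.6% of the 26413 regions listed at any protein-coding gene. A region is said below to have passed where its FDR in the authors' deposited table was under 0.05. There were 75 such regions, 73 in set 1 and 2 in set 2. That is 25.8% of the 291 (20.8% to 31.2%), against 27.8% of all listed regions, a background that lies within the interval at chromatin genes. By set, 73 of 232 passed in set 1, where 34.2% of all listed regions passed, and 2 of 59 in set 2, where 9.23% passed. The p that corresponds to an FDR of 0.05 is stricter in set 2 (5.63e-06) than in set 1 (6.21e-05). A p under 1e-05 was given for 36 of the set 1 regions (15.5%, against 18.9% of all set 1 regions) and 5 of the set 2 regions (8.47%, against 11.5% of all set 2 regions).

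**Figure D1:**
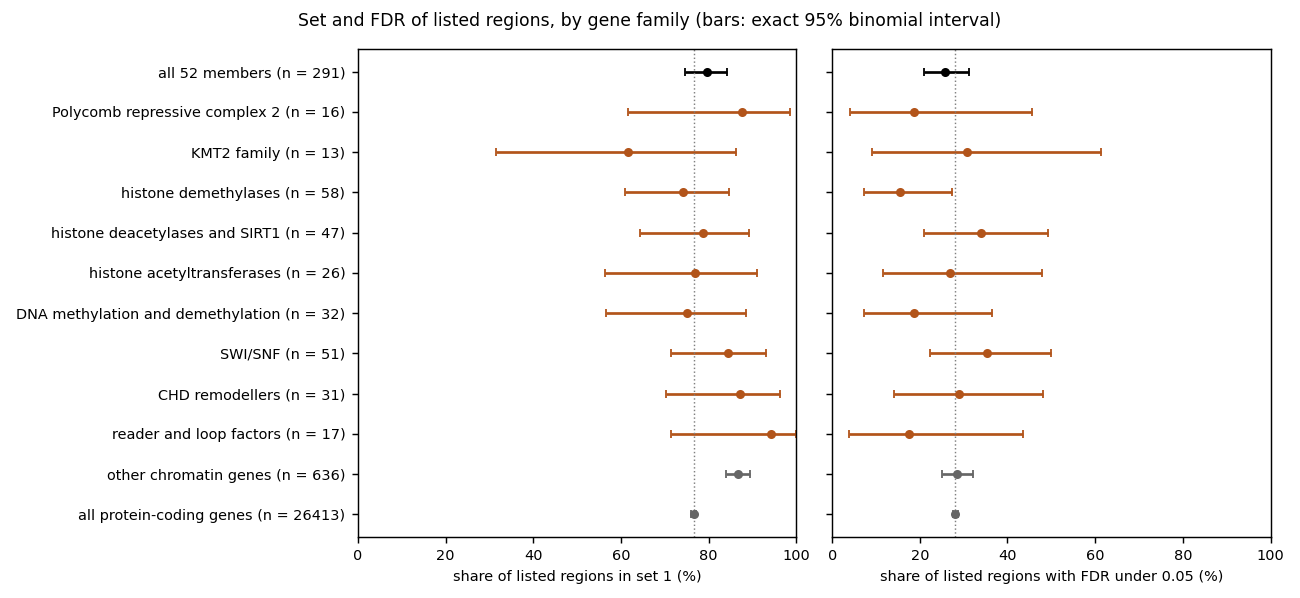
Share of listed regions in set 1 (left, %) and share with an FDR under 0.05 (right, %) for the 52 chromatin genes together, their 9 families, other chromatin genes and all protein-coding genes; points are shares, bars are exact 95% binomial intervals and n is the number of regions. The point for the 52 genes stands at 79.7% and 25.8%, beside 76.6% and 28.1% for all protein-coding genes (dotted lines).

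By gene, 33 of the 52 had at least 1 region at an FDR under 0.05 (63.5%), against 51.4% of 19063 protein-coding genes, and 94.2% had any listed region, against 79.7%. The chromatin genes are long, with a median of 68.8 kb against 17.8 kb over all genes. Over all genes, the share with such a region lay between 50.2% and 51.9% in 4 length classes, which were not matched for the number of neighbours. By the number of other protein-coding genes in the window, it was 40.8% of genes with 0 to 2 neighbours, 55.3% with 3 to 5 and 76.0% with 6 or more. In the same classes it was 19 of 32 (59.4%), 6 of 11 (54.5%) and 8 of 9 chromatin genes (88.9%). Per length of window, 26.2 regions per Mb were listed at chromatin genes, against 16.8 per Mb at all protein-coding genes; set 1 gave 20.9 against 12.9 per Mb and set 2 gave 5.31 against 3.93 per Mb. None of these differences was tested, and a second list of chromatin genes, described further on, had 34.8 regions per Mb.

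**Figure D2:**
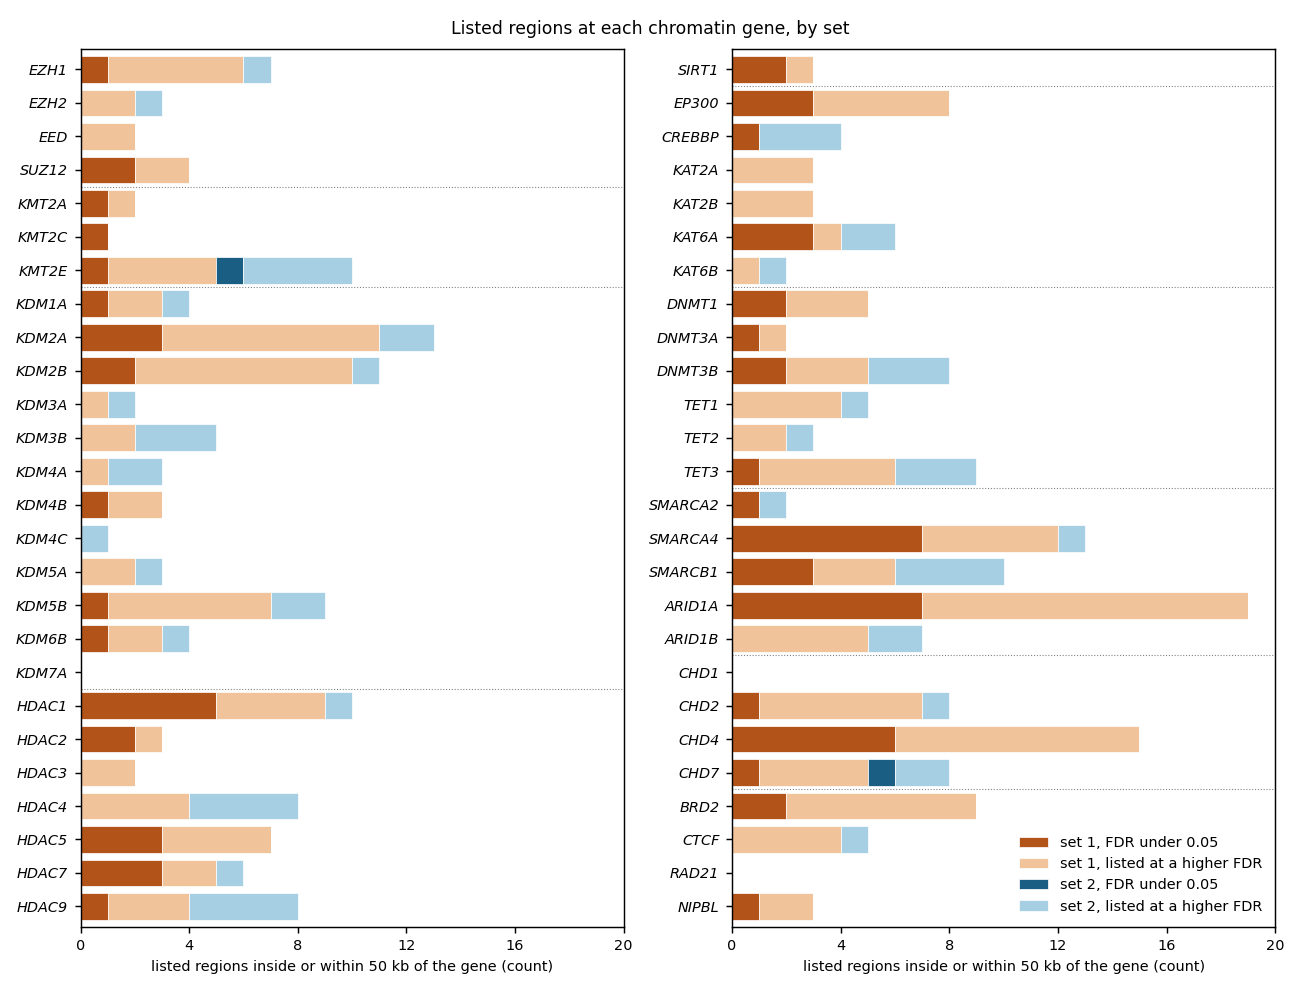
Number of listed regions (horizontal axis, count) inside or within 50 kb of each of the 52 chromatin genes, in family order; colours give the set and dark shades an FDR under 0.05. *ARID1A* (19), *CHD4* (15), *SMARCA4* (13) and *KDM2A* (13) have the longest bars, and *KDM7A*, *CHD1* and *RAD21* have none.

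The SWI/SNF genes, which encode subunits of an ATP-driven remodeller, held 51 regions, 43 in set 1 and 8 in set 2. Of these, 18 passed an FDR of 0.05, all in set 1, at 4 of 5 genes. *ARID1A*, the DNA-binding subunit of the canonical complex, had 19 listed regions, all in set 1, of which 7 passed. Of all protein-coding genes, not matched for length, 1.22% had 19 or more. This share belongs to the highest count among the 52 genes. Among the 52 genes, the lowest FDR belonged to a 500 bp region inside *ARID1A* (chromosome 2, 9535501 to 9536000). It lay 30746 bp from an end, at 2.77-fold with an FDR of 9.03e-07 (p = 2.58e-11) in the authors' deposited table. A region of equal width lay further on (chromosome 2, 9544001 to 9544500), at 1.62-fold with an FDR of 1.44e-05 (p = 8.56e-10) by the authors' deposited table. Of the 7 regions that passed at this gene, 4 lay inside it, 1 lay 12457 bp beyond the lower-numbered end, and 2 lay inside *PIGV*, a gene for anchoring proteins to the membrane, 10154 and 10654 bp beyond the other end.

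*SMARCA4*, the ATPase that drives the complex, had 13 listed regions, 12 in set 1, and 7 of them passed. A pair of them flanked its lower-numbered end. One lay 3072 bp outside (chromosome 7, 95280601 to 95281400), at 2.69-fold and an FDR of 0.000247 (p = 3.40e-08) in the authors' deposited table. The other lay 628 bp inside, at 2.04-fold (FDR = 0.0110 by the authors' deposited table). A further region 9592 bp past the far end (chromosome 7, 95383201 to 95383700) stood at 3.32-fold, with an FDR of 0.000621 in the authors' deposited table.

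The paralogues of these genes held fewer regions over longer windows. *ARID1B* had 7 regions over 526 kb, 5 in set 1, and none passed (lowest FDR 0.0662 in the authors' deposited table). *ARID1A* had 19 over 169 kb, or 11.3 per 100 kb against 1.33. *SMARCA2*, the alternative ATPase, had 2 regions, 1 in each set; the set 1 region, inside the gene (chromosome 8, 42291401 to 42291800), passed at 2.90-fold with an FDR of 0.00274 in the authors' deposited table. *SMARCB1*, a core subunit, had 10 regions among 8 other genes, 6 in set 1 and 4 in set 2. Its 3 regions that passed lay outside the gene, 1 inside *DERL3* at 3012 bp and 2 near *ZNF70* at 38743 and 42193 bp, with fold changes of 1.42 to 2.33 in the authors' deposited table.

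**Figure D3:**
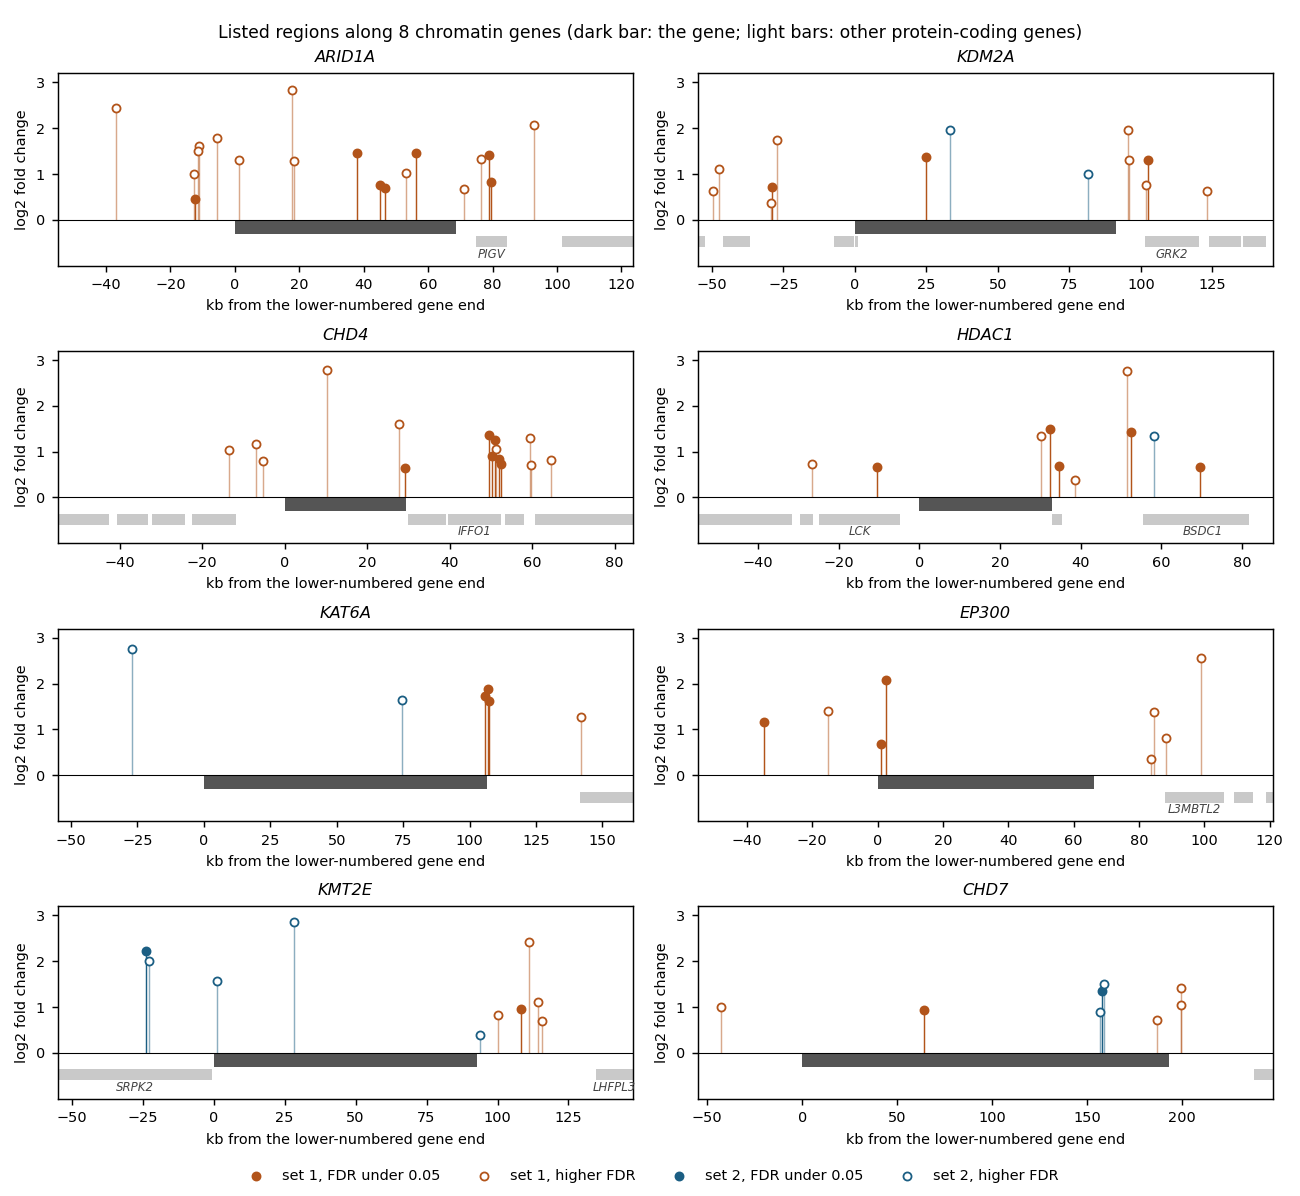
Log2 fold change (vertical axis, authors' table) of every listed region along 8 chromatin genes, against distance in kb from the lower-numbered end of the gene; dark bars are the genes, light bars other protein-coding genes, filled points an FDR under 0.05. The *KAT6A* regions that passed sit together at 1 end of the gene, those of *CHD4* mostly inside *IFFO1*, and at *KMT2E* the set 2 points lie to the left of the set 1 points.

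The 4 CHD remodellers had 31 listed regions, 27 in set 1 and 4 in set 2, of which 8 of set 1 and 1 of set 2 passed. *CHD4*, the ATPase of the nucleosome remodelling and deacetylase complex, had 15 listed regions, all in set 1, of which 6 passed. Of the 6, 5 lay together within 3400 bp (chromosome 5, 102785501 to 102788900), 19891 to 22891 bp beyond *CHD4*, inside *IFFO1*, an intermediate filament-like gene, and beside *GAPDH*, a glycolytic enzyme. Their fold changes ran from 1.66 to 2.57 in the authors' deposited table, with the lowest FDRs at 102787901 to 102788500 (1.79-fold, p = 2.70e-07, FDR = 0.00117) and at 102786301 to 102787000 (1.88-fold, p = 1.12e-06, FDR = 0.00322). The sixth lay 309 bp inside an end of *CHD4* itself (chromosome 5, 102765401 to 102765700), where *NOP2*, a ribosomal RNA methyltransferase, begins just beyond. It stood at 1.56-fold with an FDR of 0.0355 in the authors' deposited table.

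*CHD7*, a remodeller that acts at enhancers, had regions of both sets that passed, 93.5 kb apart inside the gene. The set 1 region (chromosome 14, 55672301 to 55672800) stood at 1.91-fold in the authors' deposited table (p = 3.73e-07, FDR = 0.00148). The set 2 region (chromosome 14, 55765801 to 55766200) stood at 2.55-fold by the authors' deposited table (p = 1.93e-06, FDR = 0.0245). It lay between 2 further set 2 regions that did not pass, with fold changes of 1.86 and 2.84 in the authors' deposited table. In all *CHD7* had 8 listed regions, 5 in set 1 and 3 in set 2. *CHD2* had 8 as well, 7 in set 1. The 1 that passed lay inside *RGMA*, a guidance molecule gene, 25997 bp from *CHD2* (chromosome 21, 13280501 to 13280900), at 4.45-fold and an FDR of 0.00357 (p = 1.30e-06) in the authors' deposited table. *CHD1* had no listed region; the nearest lay 62.4 kb away.

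The deacetylases, which remove acetyl groups from histones, had 47 listed regions, 37 in set 1 and 10 in set 2, and 16 passed, all in set 1, at 6 of 8 genes. The lowest FDR of the family belonged to a region 45420 bp from *HDAC2* and nearer to *MARCKS*, a substrate of protein kinase C (chromosome 9, 23846401 to 23847200). It stood at 2.80-fold with an FDR of 5.22e-06 (p = 2.37e-10) in the authors' deposited table. A second region there, 49820 bp from *HDAC2* and just within the window (chromosome 9, 23851101 to 23851300), stood at 6.03-fold in the authors' deposited table (p = 3.22e-05, FDR = 0.0324). No listed region lay inside *HDAC2*. A 1000 bp region inside *LSM12*, 18398 bp from *HDAC5* (chromosome 19, 43535001 to 43536000), followed at 2.15-fold and an FDR of 1.17e-05 (p = 6.49e-10) in the authors' deposited table. *HDAC5* had 7 listed regions, all in set 1, and the 3 that passed lay inside *LSM12*, *NAGS* and *TMEM101*.

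At *HDAC7* and *HDAC1* the regions reached the genes themselves. *HDAC7* had 6 listed regions, 5 in set 1, of which 3 passed. One lay 5632 bp inside (chromosome 5, 32041801 to 32042200), at 2.55-fold in the authors' deposited table (p = 1.65e-07, FDR = 0.000807). Another lay only 68 bp outside an end, at 1.502-fold (FDR = 0.0258 in the authors' deposited table). The last of the 3 lay nearest to *VDR*, the vitamin D receptor. *HDAC1* had 10 listed regions, 9 in set 1, of which 5 passed. One of these lay 410 bp inside the gene (chromosome 2, 14474401 to 14474600), at 2.82-fold with an FDR of 0.0321 in the authors' deposited table. A neighbour at 1.61-fold by the authors' deposited table lay 1740 bp outside that end, inside *MARCKSL1*. The other 3 lay inside *LCK*, a T cell kinase gene, inside *BSDC1* and near *FAM229A*. *SIRT1*, a deacetylase that depends on NAD, had 3 regions, all in set 1. Of its 2 that passed, 1 lay 466 bp inside the gene at 1.40-fold and 1 lay 11984 bp outside at 2.29-fold, with FDRs of 0.00790 and 0.00114 in the authors' deposited table. The outer region was nearer to a gene that has no symbol, at 2686 bp.

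*HDAC4* and *HDAC9*, long genes with no other protein-coding gene in the window, each had 8 listed regions, 4 in either set, all inside the gene. None passed at *HDAC4* (lowest FDR 0.0673 in the authors' deposited table). At *HDAC9* a single set 1 region passed, 18728 bp inside (chromosome 4, 92871601 to 92871800), at 2.10-fold and an FDR of 0.0490 in the authors' deposited table. Among the 52 genes, the highest fold change, 15.1 in the authors' deposited table, belonged to a set 2 region inside *HDAC9*. That region had an FDR of 0.472 by the same table and did not pass. *HDAC3* had 2 set 1 regions, neither of which passed.

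The 6 acetyltransferase genes had 26 listed regions, 20 in set 1 and 6 in set 2. Of these, 7 passed, all in set 1, at 3 genes. Within 3000 bp of an end of the gene itself lay 6 of the 7, of which 3 form a single stretch at *KAT6A*, against 17 of the 75 that passed at all 52 genes. *KAT6A*, which acetylates histones at developmental genes, had 6 listed regions, 4 in set 1. Of these, 3 passed within a stretch of 2100 bp (chromosome 27, 8767801 to 8769900), from 889 bp inside to 811 bp outside 1 end. Their fold changes were 3.32, 3.66 and 3.09 along the chromosome in the authors' deposited table, with FDRs of 0.0117 (p = 7.08e-06), 0.0424 and 0.0276, so the regions of this stretch were alike in size. *KAT6B*, its paralogue, had 2 listed regions, 1 in each set, and neither passed.

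*EP300* and *CREBBP*, coactivator acetyltransferases close in sequence, had different counts by set. *EP300* had 8, all in set 1, and 3 passed. Of the 3, 2 lay inside it near 1 end, at 1020 bp (chromosome 5, 111214501 to 111214900) with 1.59-fold and an FDR of 0.00246 (p = 7.60e-07), and at 2720 bp (chromosome 5, 111216301 to 111216500) with 4.21-fold and an FDR of 0.0314 (p = 3.06e-05) in the authors' deposited table. The other lay 34830 bp outside (chromosome 5, 111178601 to 111179100), at 2.25-fold (p = 1.44e-06, FDR = 0.00383 in the authors' deposited table). *CREBBP* had 4, all inside the gene, 1 in set 1 and 3 in set 2. Only the set 1 region passed; it lay 1297 bp from an end (chromosome 25, 3089501 to 3089800), at 1.99-fold and an FDR of 0.0329 in the authors' deposited table. The set 2 regions of *CREBBP* lay at least 35436 bp from an end, at 4.75, 2.36 and 3.37 in the authors' deposited table. The difference between these paralogues was not tested. *KAT2A* and *KAT2B* had 3 set 1 regions each, none of which passed.

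The histone demethylases had 58 listed regions, 43 in set 1 and 15 in set 2, with the lowest share of the 9 families of regions that passed, 9 of 58 (15.5%, exact 95% binomial interval 7.35% to 27.4%, which holds the 25.8% of all 52 genes), all 9 in set 1, at 6 of 12 genes. *KDM5B*, which removes a mark of active promoters, had 9 listed regions, 7 in set 1. The 1 that passed lay 2868 bp outside the gene (chromosome 16, 78453701 to 78454100), at 1.57-fold with an FDR of 0.00178 (p = 4.84e-07) in the authors' deposited table. At *KDM6B*, an eraser of the Polycomb mark, 1 of 4 passed, 3743 bp outside and within a gene that has no symbol (chromosome 19, 27284101 to 27284400), at 2.36-fold and an FDR of 0.00309 (p = 1.05e-06) in the authors' deposited table. *KDM4B*, a demethylase that works with the oestrogen receptor in human breast cells, had 3 set 1 regions. The 1 that passed lay 7408 bp inside (chromosome 7, 91340201 to 91340700), at 1.89-fold and an FDR of 0.00437 (p = 1.75e-06) in the authors' deposited table.

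*KDM2A* and *KDM2B*, demethylases that bind unmethylated CpG islands, had 13 listed regions (11 in set 1) and 11 listed regions (10 in set 1). Of the 3 that passed at *KDM2A*, 1 lay inside it, 1 inside *GRK2*, a kinase of G protein-coupled receptors, and 1 nearest to *RHOD*, with fold changes of 1.65 to 2.58 in the authors' deposited table. Of the 2 at *KDM2B*, 1 lay 279 bp outside an end (chromosome 17, 17581301 to 17581900) at 1.78-fold, and 1 lay 25331 bp inside at 4.11-fold in the authors' deposited table. *KDM1A*, the demethylase LSD1, had 4 listed regions. The 1 that passed lay 3706 bp outside, nearer to *C2H1orf234* at 1094 bp, at 2.58-fold in the authors' deposited table (FDR = 0.0290). *KDM3A*, *KDM3B*, *KDM4A*, *KDM4C* and *KDM5A* had listed regions but none that passed. Of these, *KDM3B* (2 in set 1, 3 in set 2), *KDM4A* (1 and 2) and *KDM4C* (0 and 1) had more regions in set 2. *KDM7A* had none; the nearest lay 66.1 kb away.

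Each of the 3 KMT2 family genes had a region that passed, among 13 listed, 8 in set 1 and 5 in set 2. *KMT2E*, a regulator with a catalytically inactive SET domain, had the set 2 region with the lowest FDR among the 52 genes (chromosome 4, 73982001 to 73982300). It lay inside *SRPK2*, a splicing factor kinase, 23907 bp outside *KMT2E*, at 4.69-fold in the authors' deposited table (p = 2.03e-07, FDR = 0.00493). A set 1 region 132 kb away, 15357 bp past the other end, passed at 1.95-fold and an FDR of 0.0251 in the authors' deposited table. All 10 listed regions of *KMT2E* followed that order along the chromosome, with 5 of set 2 from the lower-numbered side to 1007 bp past the higher-numbered end and 5 of set 1 from 7157 bp past that end; this was noticed after the values were seen. *KMT2C*, an enhancer methyltransferase, had 1 listed region in a window of 358 kb, and it passed. It lay 50998 bp inside (chromosome 4, 5226901 to 5227200), at 4.15-fold and an FDR of 0.0162 (p = 1.14e-05) in the authors' deposited table. *KMT2A*, a promoter methyltransferase, had 2; the 1 that passed lay inside *IFT46*, a cilium transport gene, 24737 bp from *KMT2A* (chromosome 15, 53123201 to 53123500), at 2.51-fold in the authors' deposited table (p = 2.05e-05, FDR = 0.0241).

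Polycomb repressive complex 2, which deposits a silencing mark on histones, had 16 listed regions, of which 3 passed, all in set 1 and all outside the genes. That is 18.8% (exact 95% binomial interval 4.05% to 45.6%, which holds the 25.8% of all 52 genes). *SUZ12*, a core subunit, had 4 set 1 regions. Of these, 2 passed beyond the same end, at 9773 bp (chromosome 19, 17861401 to 17862000) with 1.64-fold and an FDR of 0.000661 (p = 1.25e-07), and at 12573 bp (chromosome 19, 17864401 to 17864600), nearer to *UTP6*, with 1.81-fold and an FDR of 0.0379 (p = 4.06e-05) in the authors' deposited table. *EZH1*, an alternative catalytic subunit, had 7 listed regions among 10 other genes. The 1 that passed lay inside *CNTNAP1*, 12660 bp from *EZH1* (chromosome 19, 42389801 to 42390200), at 1.42-fold in the authors' deposited table (p = 4.76e-05, FDR = 0.0419), and for 0 of the 7 was *EZH1* the nearest gene. *EZH2*, the main catalytic subunit in dividing cells, had 3 listed regions at 1 end, 2 in set 1 and 1 in set 2, with FDRs from 0.245 upwards in the authors' deposited table. *EED*, which reads the mark, had 2 set 1 regions that did not pass.

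The 6 DNA methylation genes had 32 listed regions, 24 in set 1 and 8 in set 2, and 6 passed, all in set 1, at 4 genes. *DNMT3B*, a de novo methyltransferase, had the leading region, 190 bp outside an end (chromosome 13, 61467401 to 61467800), at 1.55-fold with an FDR of 0.000229 (p = 3.10e-08) in the authors' deposited table. It had 8 listed regions, 5 in set 1, and a second that passed, nearest to *COMMD7* and 38990 bp away (chromosome 13, 61428501 to 61429100), stood at 2.63-fold in the authors' deposited table (p = 3.67e-06, FDR = 0.00741). *DNMT3A* had 2 set 1 regions. The 1 that passed lay 30385 bp away and 625 bp from *DTNB*, at 1.85-fold in the authors' deposited table. *DNMT1*, which copies methylation at replication, had 5 set 1 regions, and the 2 that passed lay 40061 and 47661 bp away at *MRPL4*, a mitochondrial ribosome gene, at 2.04 and 1.94-fold in the authors' deposited table. Of the TET genes, which oxidise methylcytosine, only *TET3* had a region that passed, 12721 bp outside (chromosome 11, 10412401 to 10413300), at 2.34-fold and an FDR of 0.000766 (p = 1.53e-07) in the authors' deposited table. *TET3* had 9 listed regions, 6 in set 1, against 5 at *TET1* and 3 at *TET2*, none of which passed.

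Loop and reader genes had 17 listed regions, 16 in set 1 and 1 in set 2, and 3 of set 1 passed, at 2 of 4 genes. *BRD2*, which binds acetylated histones, had 9, all in set 1, within 111.7 kb. The 2 that passed lay 1405 bp outside (chromosome 23, 41404601 to 41405000) and 5295 bp inside (chromosome 23, 41397801 to 41398400), at 3.202-fold (p = 4.56e-05, FDR = 0.0408) and 1.66-fold (p = 5.56e-05, FDR = 0.0466) in the authors' deposited table. *NIPBL*, the cohesin loader, had 3 set 1 regions, of which 1 passed 2164 bp outside (chromosome 20, 37343401 to 37343800), at 2.93-fold and an FDR of 0.0479 (p = 5.82e-05) in the authors' deposited table. *CTCF*, the insulator protein, had 5, of which the set 1 region inside the gene came nearest to passing (3.31-fold, FDR = 0.0506 in the authors' deposited table). *RAD21*, a cohesin subunit, had none; the nearest listed region lay 247 kb away.

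**Figure D4:**
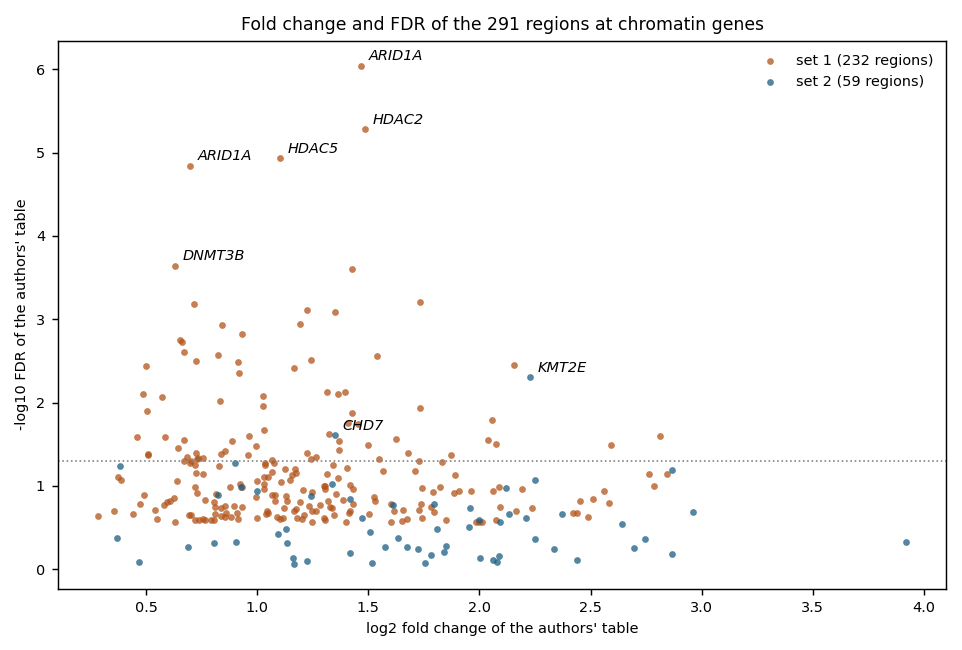
Fold change (horizontal axis, log2) against FDR (vertical axis, −log10) of the authors' table for the 291 regions at chromatin genes, 232 of set 1 and 59 of set 2; the dotted line marks an FDR of 0.05. Set 2 points reach higher fold changes, up to 15.1, yet only the *KMT2E* and *CHD7* regions of set 2 lie above the line.

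By set, the fold changes of the authors' deposited table had medians as follows. In set 1 it was 2.24 (interquartile range 1.77 to 2.85) over 232 regions, against 2.39 (1.87 to 3.23) over the whole set. In set 2 it was 3.37 (2.29 to 4.37) over 59 regions, against 3.59 (2.67 to 4.98). Among set 1 regions that passed, the median was 2.04 (1.65 to 2.69) at chromatin genes, against 2.32 (1.88 to 3.05). The median width of the listed set 1 regions was 200 bp, against 300 bp over the whole set. Of the 75 regions that passed, 27 (36.0%) had another of the same set within 5000 bp, against 22.1% of all 8330 such regions on numbered chromosomes. The 8330 are not limited to gene windows, as 7412 of them lay at protein-coding genes, so the 2 shares have unlike backgrounds. Of the 27, 5 form 1 stretch at *CHD4*. The stretches lay at *CHD4*, *KAT6A*, *SMARCA4*, *ARID1A*, *EP300*, *HDAC1*, *HDAC2*, *SMARCB1* and *SUZ12*.

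The sets were also laid out by position, with no test of the difference. Of the 59 set 2 regions, 36 (61.0%) lay inside the chromatin gene and 4 (6.78%, exact 95% binomial interval 1.88% to 16.5%) within 3000 bp of its ends. Of the 232 set 1 regions, 71 (30.6%) lay inside and 43 (18.5%, 13.8% to 24.1%) within 3000 bp. Counting the end of any protein-coding gene, 20.3% of the set 2 and 42.7% of the set 1 regions were within 3000 bp, against 15.6% and 39.6% of the regions of each set at all genes. Inside any gene lay 83.1% of the 59 set 2 regions at chromatin genes, against 66.5% at all genes. For set 1 it was 57.3%, against 58.6%. The chromatin genes are longer (median 68.8 kb against 17.8 kb over all genes), and these shares were not compared at equal gene length. Of the 75 regions that passed, 49.3% (exact 95% binomial interval 37.6% to 61.1%) lay within 3000 bp of the end of any gene, against 36.4% of those that passed at all genes. Since 27 of the 75 had another of the same set within 5000 bp, they are not independent and this interval is too narrow. At an FDR under 0.05, 17 regions lay within 3000 bp of the chromatin gene's own end, at 13 genes, all in set 1, with fold changes from 1.40 to 4.21 in the authors' deposited table. The 13 were *BRD2*, *CHD4*, *CREBBP*, *DNMT3B*, *EP300*, *HDAC1*, *HDAC7*, *KAT6A*, *KDM2B*, *KDM5B*, *NIPBL*, *SIRT1* and *SMARCA4*. The gene table has no strand, so starts and ends could not be told apart.

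Many regions at chromatin genes lie closer to another gene. For 157 of the 291 (54.0%) the chromatin gene was the nearest protein-coding gene, and for 37 of the 75 that passed. The family counts depend on the window: within 10000 bp, the regions that passed numbered 9 instead of 18 for SWI/SNF, 3 instead of 9 for CHD remodellers, 6 instead of 16 for deacetylases, 1 instead of 6 for DNA methylation, 1 instead of 4 for the KMT2 family and 1 instead of 3 for Polycomb repressive complex 2. They were 7 instead of 9 for demethylases, 6 instead of 7 for acetyltransferases and 3 in both windows for readers and loop factors. The number of listed regions per gene was weakly related to the number of other genes in the window (Spearman's rho = 0.33 over 52 chromatin genes and 0.35 over 19063 protein-coding genes; genes share regions and a table, so this is a description). With gene length rho was −0.04 over the 52 genes. The share of set 1 was lower at longer genes (rho = −0.36 over the 49 genes with a region and −0.24 over 15191 genes). Both sets were present at 30 of the 49 genes (61.2%, against 36.7% of protein-coding genes with a region), set 1 alone at 18 and set 2 alone at 1. These shares were not compared at equal region count or gene length. The 52 chromatin genes had a median of 4.5 listed regions, against 3 over all genes, and of 68.8 kb, against 17.8 kb. Regions of opposite sets came within 0.600 kb of each other at *CHD2* and within 0.900 kb at *EZH2*.

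**Figure D5:**
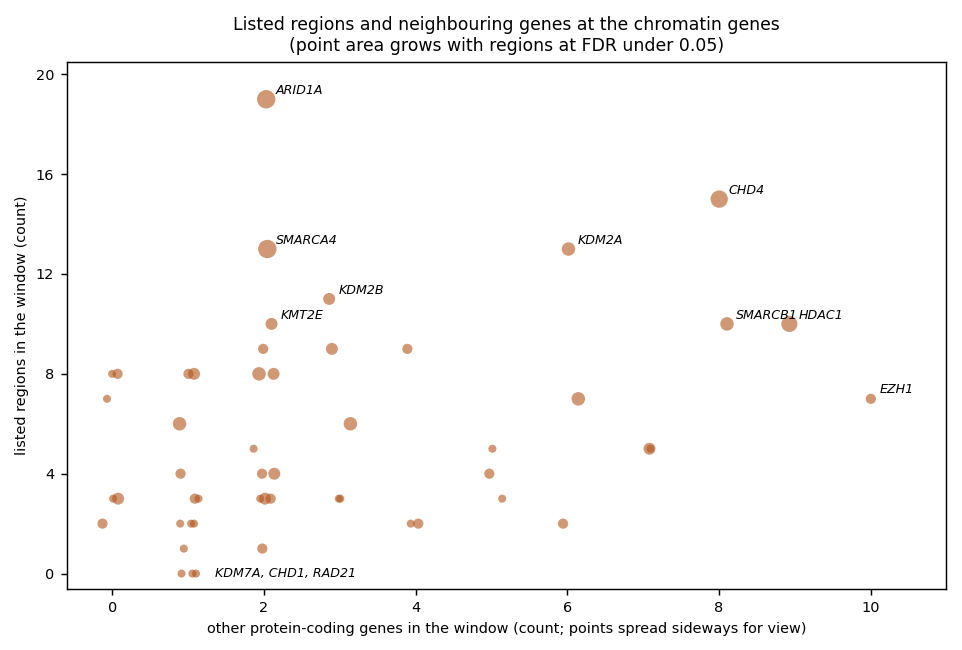
Listed regions (vertical axis, count) against other protein-coding genes in the window (horizontal axis, count) for the 52 chromatin genes; point area grows with the number of regions at an FDR under 0.05. *ARID1A* and *SMARCA4* stand high with 2 neighbours each, while *EZH1* has 10 neighbours and 7 regions.

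Another 126 chromatin genes, 111 of which matched the gene table, gave a similar picture with more set 1. They had 636 listed regions, 552 in set 1 (86.8%, exact 95% binomial interval 83.9% to 89.3%), 7 of them shared with the 52 genes, and 181 passed (28.5%), 174 in set 1 and 7 in set 2. Of the 111 genes, 70 had a region that passed (63.1%), against 63.5% of the 52. Other methyltransferases had 21 of 22 genes with such a region and other Polycomb genes 9 of 23. The counts were 14 of 21 for other remodellers, 9 of 13 for readers and loop factors, 7 of 13 for deacetylases and corepressors, 4 of 5 for demethylases, 3 of 8 for acetyltransferases and 3 of 6 for DNA methylation readers and partners. The lowest FDRs of set 1 lay at *SETD2*, *GATAD2A* and *KMT5A*, with fold changes of 2.06, 2.23 and 2.57 in the authors' deposited table. Those of set 2 lay at *AEBP2*, a Polycomb cofactor, *CBX3*, a heterochromatin protein, and *KAT5*, an acetyltransferase, at 3.45, 3.56 and 2.01 in the authors' deposited table. Only at *KMT5A* did the leading region lie inside the gene; the *SETD2*, *GATAD2A*, *AEBP2*, *CBX3* and *KAT5* regions lay 28595 to 46181 bp away and nearer to other genes.

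A table of differing regions cannot show whether marker genes of the labelled cell type were accessible. At 10 mammary epithelial markers 20 of 52 listed regions passed (38.5%), all in set 1; at 10 endothelial markers 24 of 58 passed (41.4%), 20 in set 1 and 4 in set 2; at 10 immune markers 11 of 39 passed (28.2%), 9 in set 1 and 2 in set 2. At all protein-coding genes 28.1% passed. In bulk libraries more cells of a type and more open chromatin per cell cannot be told apart, and the part of cell mixture in the regions at chromatin genes was not tested.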

How the data were processed

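ATAC-seq libraries of mammary epithelial cells, 3 per period, were compared by the authors. Bowtie2 2.2.5 and MACS2 were among the tools, per the submitters' processing notes. How differences were tested, the genome build and any Tn5 shift or duplicate removal are not given in those sources. Fold changes were deposited as linear ratios, all above 1. The authors deposited a p-value and an FDR (q-value) per region, with every p under 0.001. The deposited signal value, a score, was in each set a fixed multiple of the fold change and was not used. The deposited length is another unit, the width in bp.

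Only these values were used, so tests across libraries were not made; depth is unknown. Chromosome accessions were read as chromosomes 1 to 29. Gene positions came from RefSeq ARS1.2, whose match to the regions was checked: 15.1% of regions lay within 1000 bp of a gene end, against 5.78% and 5.90% after moving them by 100000 bp either way, and on 29 of 29 chromosomes the share was highest for its own genes. Distances run from region centres; region coordinates count from 1. A region "passed" at an FDR under 0.05. Regions just inside and outside the 50000 bp limit were a set 1 region of *HDAC2* at 49820 bp (6.03-fold) and one of *DNMT3B* at 50010 bp (4.23-fold) in the authors' deposited table. Assignment was tested on simulated data. Python 3.11.15, pandas 2.3.3 and SciPy 1.17.1 were used. Intervals are exact binomial and treat regions as independent, which regions lying together in a stretch are not.

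The 52 genes, the lists and the tests were chosen with earlier results of these data known. Full values are given for up to 3 regions per family with the smallest FDR, the 5 largest fold changes that passed, of which 1 is not reported here, and every set 2 region that passed; counts for genes with 6 or more regions; and the 3 smallest FDRs per set of the other chromatin genes. Other regions are named to account for every gene. Sequences are not analysed here.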

Additional observations from a re-analysis of the deposited data

How the results depend on the processing

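No paired analysis was possible because the table holds no value per library; leaving out libraries could not be run for the same reason. Of 39 settings tried on the main results, 19 left a count within 1.5 times, or a share or median within the 95% interval of the reported value. The 291 listed regions became 152 within 10000 bp, 127 inside or within 3000 bp, and 157 with the chromatin gene nearest. The 75 regions that passed became 33 at an FDR under 0.01, 118 under 0.1, 41 at p under 1e-05, 37 within 10000 bp, 31 inside or within 3000 bp, and 37 with the chromatin gene nearest; the 33 genes with such a region became 20 inside or within 3000 bp. The lower counts and the higher one at an FDR under 0.1 follow by construction, since fewer or more regions are admitted. By family, 20 of 36 settings moved the count that passed by over 1.5 times; with the chromatin gene nearest it was 5 of 16 for deacetylases, 9 of 18 for SWI/SNF, 3 of 9 for CHD remodellers and 2 of 6 for DNA methylation. The set 1 share of 79.7% was 97.3% at an FDR under 0.05, 97.0% under 0.01, 87.8% at p under 1e-05, 70.9% inside or within 3000 bp and 74.5% with the chromatin gene nearest. The median set 1 fold change of 2.24 was 2.04 at an FDR under 0.05 and 2.37 with the chromatin gene nearest. The share within 3000 bp of the gene's own end, 16.2%, was 22.7% at an FDR under 0.05, 7.22% for 1000 bp and 21.6% for 5000 bp. Without *ARID1A*, *CHD4*, *KDM2A* and *SMARCA4*, a setting chosen after seeing the data, 52 of 231 regions passed (22.5%) and the set 1 share was 75.8%. Depth per region is unknown and limits what an unlisted region shows.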
